A study of Mus musculus with 8 samples.

Results

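LMP1 is a membrane protein of Epstein-Barr virus that clusters without a ligand and signals through TRAF adaptor proteins, and it is often likened to CD40, the surface protein of B cells through which helper T cells deliver their activating signal. Here the response of mouse spleen B cells to LMP1 was set against their response to CD40, gene by gene, as (LMP1 minus YFP control) minus (CD40-activated minus naive control). All 8 arrays of the series entered the contrast, 2 in each of 4 groups. The LMP1 and YFP control arrays are labelled re-analyzed and came from an earlier series. LMP1 cells came from LMP1flSTOP/YFPflSTOP mice and YFP control cells from YFPflSTOP/+ mice, both female (C57BL6XBALBc) F1. In both genotypes a stop cassette keeps the transgenes silent until Cre removes it, so the B cells were treated outside the animal with TAT-Cre, a recombinase that enters cells, and YFP+ cells were sorted 2 days later. CD40-activated cells were B6/J male B cells treated with anti-CD40 for 2 days, and the naive controls were the same kind of cells, lysed without culture. All 4 groups were enriched from spleen by removing cells that carry CD43. The ages of the mice, and whether each sample was 1 animal or a pool, are not given in the sources used here.

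CD40 and LMP1 both recruit TRAF proteins and switch on the canonical and the alternative NF-kB pathways as well as JNK and p38 kinases. CD40 signals when CD154 on a T cell binds it and is then taken off the surface, while LMP1 signals constitutively. Activated B cells are known to enlarge, divide, take up more nutrients, show more costimulatory ligands and present antigen on MHC class II.

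The values are log2 expression, and each gene's level is compared only with its own level on other arrays. The LMP1 response and the CD40 response are the changes from each group's own control. The difference of responses is the LMP1 response minus the CD40 response, and equals the gap between LMP1 and CD40-activated cells (the direct gap) less the gap between YFP and naive controls (the control gap). A difference between the 2 pairs of groups in strain, sex or hybridisation that adds the same amount to all 4 arrays of a pair cancels in it. The 2 control groups are unlike in culture as well: YFP control cells had 2 days of culture, TAT-Cre and sorting, and naive controls none of these. What culture, handling and CD40 each gave to the CD40 response cannot be told apart.

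Replicates correlated at r = 0.996 for LMP1, 0.975 for YFP control, 0.993 for CD40-activated and 0.981 for naive control over 21515 genes, and 14, 950, 34 and 364 genes lay over 1 log2 unit apart between replicates in these groups. The arrays matched their labelled sex. B cell markers were high on every array, with Ms4a1 between 11.28 and 12.35 and Cd79a between 11.44 and 12.65. Markers of T, NK, erythroid and platelet cells were higher on the naive arrays. The 7 T cell markers averaged 8.54 to 8.73 there against 5.42 to 6.11 on the other 6 arrays, the 9 NK cell markers 6.38 to 6.78 against 4.51 to 4.88, and the 6 erythroid and platelet markers 6.89 to 7.83 against 4.95 to 5.39. The 7 dendritic cell markers averaged 6.42 to 6.59 on LMP1 arrays, 5.57 to 5.62 on YFP controls, 5.69 to 5.72 on CD40-activated arrays and 5.83 to 6.21 on naive arrays. The 11 monocyte and macrophage markers averaged 5.10 to 5.17, 5.55 to 5.98, 5.57 to 5.61 and 5.53 to 5.76 in the same groups, and the 9 neutrophil markers 4.16 to 4.63 over all arrays. In bulk RNA, fewer cells of a type and less RNA per cell cannot be told apart. The LMP1 transcript was not analysed here.

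A difference of responses passed the threshold, an adjusted p under 0.05 over all genes, for 1790 of 21515 genes (8.32%). It lay above 0 for 903 (4.2%) and below 0 for 887 (4.12%), and 4803 genes had an unadjusted p under 0.05. The LMP1 response itself passed for 4995 genes (23.2%), of which 3208 rose and 1787 fell, and the CD40 response for 3803 (17.7%), of which 2373 rose and 1430 fell. With quantile normalization done within each set of 4 arrays these splits were 2544 against 2217 and 1765 against 1571, and with array medians subtracted the CD40 split was 2808 against 973. Both responses rose for 1442 genes, which is 45% of the genes raised by LMP1 and 60.8% of those raised by CD40. Both fell for 377 genes, 21.1% of the LMP1 falls and 26.4% of the CD40 falls. Across all genes the responses correlated at r = 0.436, a description over genes whose arrays were normalized together.

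Of the 1790 genes, 603 rose with LMP1 and by more than with CD40, and 597 fell with LMP1 and by more than with CD40. Among the 603 rises, 438 had no called CD40 response, 89 rose with both, and 76 rose with LMP1 and fell with CD40. Among the 597 falls, 404 had no called CD40 response, 40 fell with both, and 153 fell with LMP1 and rose with CD40. The difference exceeded 1 log2 unit in size for 538 of the rises and 556 of the falls. For 547 further genes the CD40 response was the larger, and for 43 neither response passed alone. Protein-coding genes made up 94.4% of the rises and 84.3% of the falls, against 86.9% of all genes. Their median levels over all arrays were 6.97 and 7.78, against 5.68 for all genes. These counts depended on single arrays. Without 1 of the LMP1 or CD40-activated arrays, which are the closest replicates, 200 to 231 rises and 239 to 295 falls were left, and without YFP control 1 there were 1787 rises and 1291 falls.

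**Figure D1:**
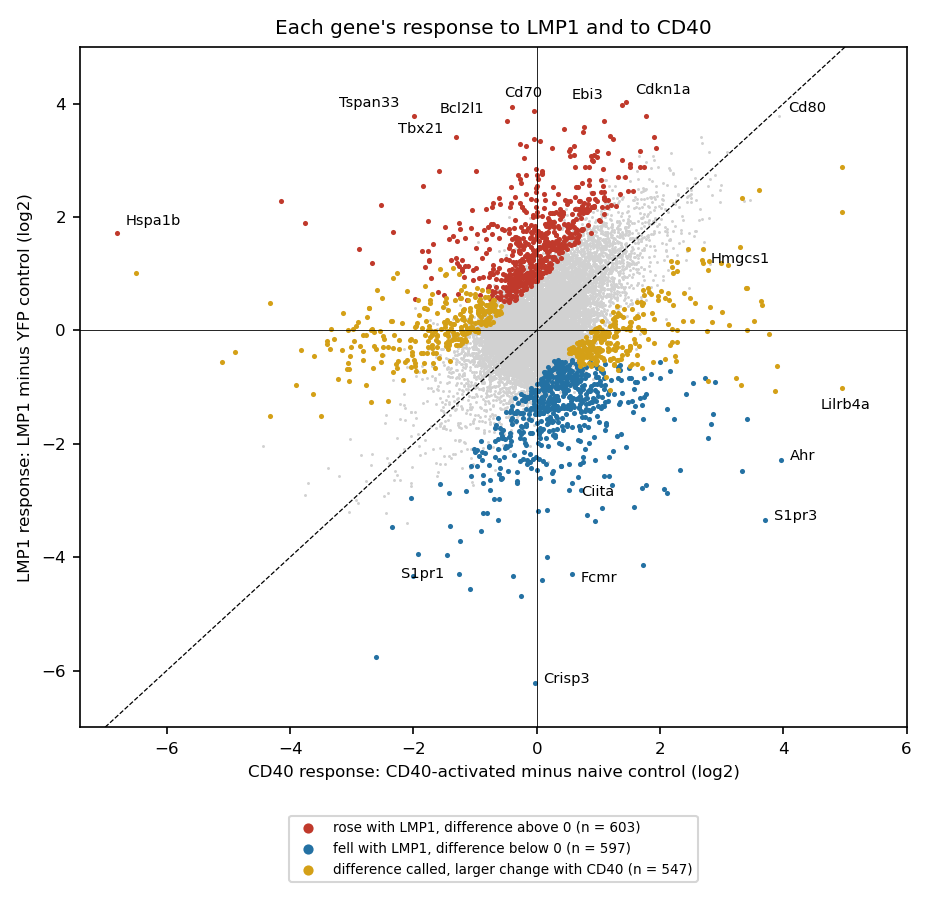
LMP1 response (LMP1 minus YFP control, log2, vertical axis) against CD40 response (CD40-activated minus naive control, log2, horizontal axis), with 1 point per gene, grey where the difference did not pass and a dashed line where both are equal. Red points (603) rose and blue points (597) fell with LMP1 by more than with CD40, and yellow points (547) changed more with CD40; Cd70 stands high on the zero line of the CD40 response, while Cd80 lies near the dashed line.

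Each gene's difference was also read as its direct gap less its control gap. The controls lay within 0.5 log2 units of each other for 318 of the 603 rises and 194 of the 597 falls, against 70.4% of all genes. Both LMP1 arrays stood above all other 6 for 507 of the rises (17.3% of all genes did so) and below all of them for 358 of the falls (12.5% of all genes). The rises and falls were chosen by contrasts of the same arrays. Such shares follow in part from that choice and are no further evidence. The control gap was larger in size than the direct gap for 141 rises, 294 falls and 409 of the 547 genes that changed more with CD40. For those genes the difference reflects mainly how YFP and naive controls stood to each other. The control gap is given below for named genes where it exceeds 1 in size. Over all genes 4.2% of differences lay above 0 and 4.12% below, the shares to set beside each list count below. With LMP1 14.9% of all genes rose and 8.31% fell, and with CD40 11% rose and 6.65% fell.

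**Figure D2:**
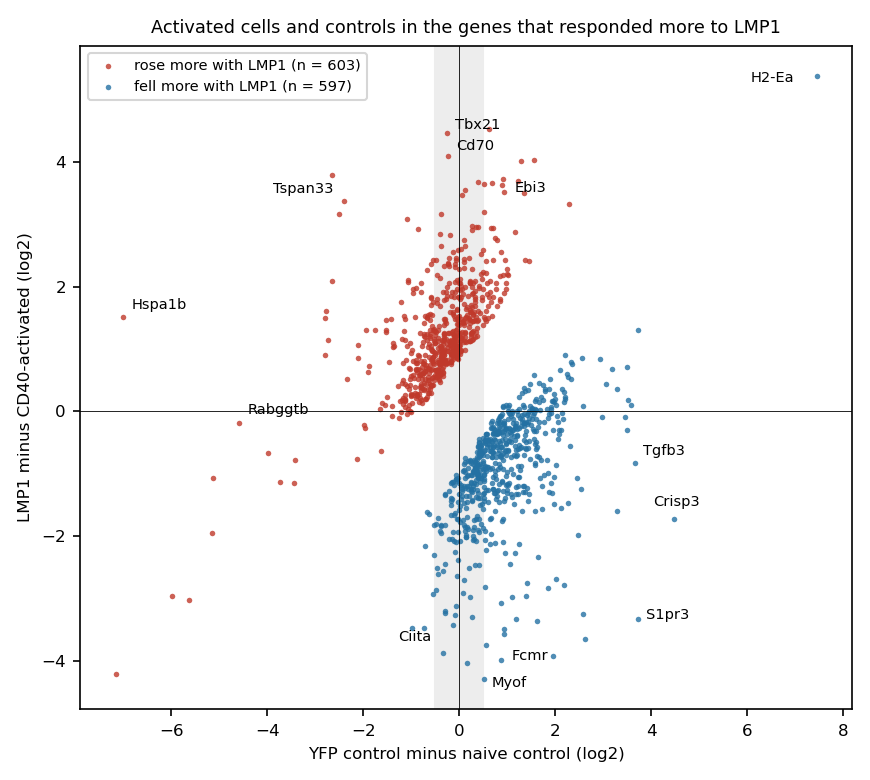
Direct gap (LMP1 minus CD40-activated, log2, vertical axis) against control gap (YFP control minus naive control, log2, horizontal axis) for the 603 genes that rose (red) and the 597 that fell (blue) more with LMP1; the grey band marks control gaps under 0.5. Cd70 and Tbx21 lie high inside the band and Ciita low inside it, whereas Hspa1b, Rabggtb, S1pr3 and H2-Ea lie far outside it.

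Costimulatory ligands, which sustain T cell activation, included the gene with the largest difference among those that responded to LMP1 alone with controls close together. Cd70, the ligand of the T cell receptor CD27, had 8.17 and 8.33 on LMP1 arrays and 4.19 and 4.43 on YFP controls, against 4.24 and 4.07 on CD40-activated and 4.59 and 4.51 on naive control arrays. It stood high on the 2 LMP1 arrays and near the low end of the scale on the other 6, with a difference of 4.34 ± 0.24 (SE, n = 2 arrays per group, adjusted p = 2.17e-05). Each SE given here comes from 1 spread per gene, shared by all 4 groups, and not from the arrays of 1 group. Tnfsf9, the ligand of 4-1BB, had 10.45 and 10.51 with LMP1 and 6.48 and 7.29 in YFP controls, against 6.79 and 6.72 after CD40 activation and 6.19 and 5.78 in naive controls, a difference of 2.83 ± 0.36 (adjusted p = 0.00141). Icam1, the ligand of the integrin LFA-1, rose with both but more with LMP1 (2.65 against 1.05), and Slamf1, a receptor that binds itself on neighbouring lymphocytes, rose by 1.53 with LMP1 against 0.34 with CD40, which did not pass.

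In all, 6 of the 13 costimulatory ligands had a difference above 0 (4.2% of all genes did) and none below, with a median difference of 0.745 against 0.025 over all genes. Besides the 4 above, Tnfsf8 had a control gap of -1.15 and changed with CD40 rather than LMP1, and Cd86 (1.1 ± 0.28, control gap 1.14) passed although neither of its responses did. Cd80, a ligand of CD28, showed no called difference (-0.16 ± 0.61, adjusted p = 0.92), with LMP1 arrays at 11.12 and 11.13, YFP controls at 6.46 and 8.23, CD40-activated arrays at 8.75 and 8.54 and naive controls at 4.75 and 4.67. Both responses of Cd80 passed, its 2 YFP controls lay far apart, and its control gap was 2.64. Tnfsf4, the OX40 ligand (0.75 ± 0.23), and Icosl, the ligand of ICOS (-0.01 ± 0.3, control gap -1.14), did not pass either. Without any 1 of the LMP1 or CD40-activated arrays, 3 of the 6 calls were left, and those of Icam1, Slamf1 and Cd86 were lost.

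**Figure D3:**
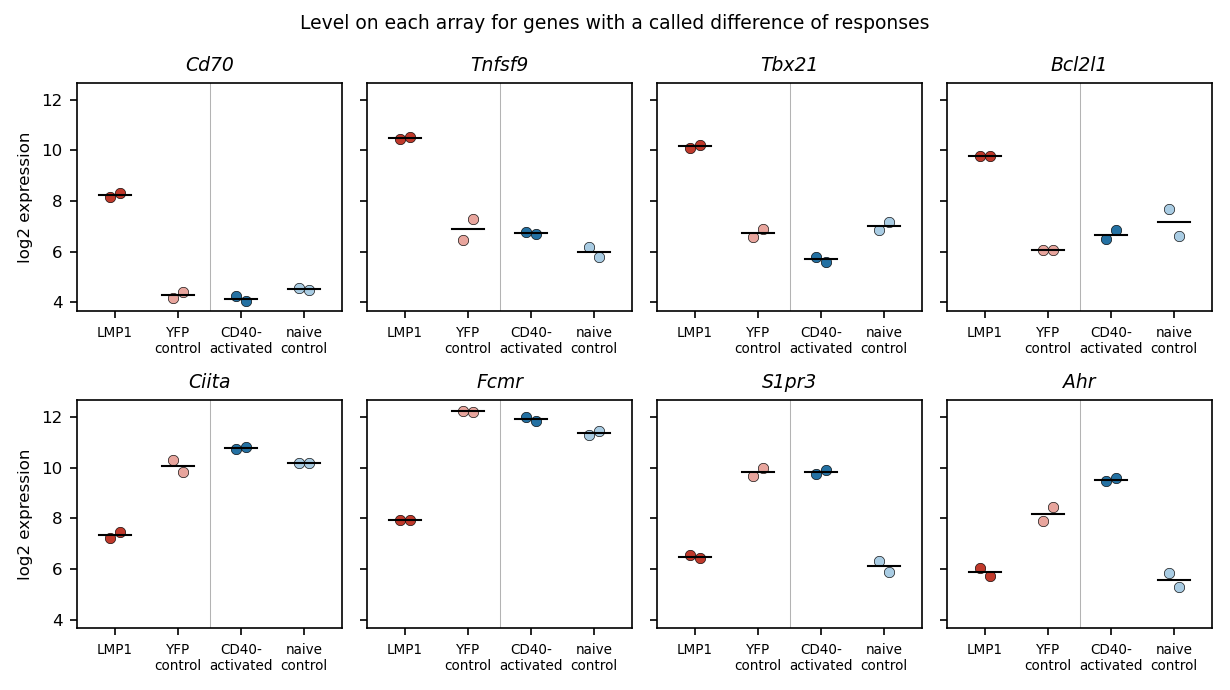
Log2 expression on each array (points) with the group mean (bar) for 8 genes, LMP1 beside YFP control and CD40-activated beside naive control. In the upper row Cd70, Tnfsf9, Tbx21 and Bcl2l1 are highest on the 2 LMP1 arrays; in the lower row Ciita and Fcmr are lowest there, while S1pr3 and Ahr are low on LMP1 and naive arrays and high on YFP control and CD40-activated arrays.

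Of the ligands and receptors that restrain lymphocytes, 4 of 11 passed, 2 in each direction. Tnfrsf14, the herpesvirus entry mediator that binds BTLA, rose with LMP1 to 9.04 and 9.04 against 7.9 and 7.62 in YFP controls, and fell with CD40 to 7.43 and 7.52 against 8.52 and 8.22 in naive controls (2.18 ± 0.25, adjusted p = 0.000871). The responses ran in opposite directions and the groups of each pair did not overlap. Pvr, a ligand of DNAM-1 and TIGIT, rose with LMP1 (1.63 ± 0.36). Havcr1, which encodes TIM-1, fell with LMP1 and rose with CD40 (-4.69 ± 0.31, control gap 1.85), and Pdcd1lg2, a ligand of PD-1, fell with LMP1 (-0.94 ± 0.24). For these 11 genes 1 call in each direction was left without any 1 of the LMP1 or CD40-activated arrays, and 1 below 0 without YFP control 2 or either naive array or with the replicate number as a block.

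Tbx21 and several cytokine and chemokine genes rose with LMP1 without a called rise after CD40 activation. Tbx21, which encodes the transcription factor T-bet, had 10.11 and 10.2 on LMP1 arrays and 6.59 and 6.9 on YFP controls, against 5.8 and 5.6 on CD40-activated and 6.86 and 7.16 on naive arrays. It was highest with LMP1 and lowest after CD40 activation, with a difference of 4.72 ± 0.26 (adjusted p = 2.17e-05). Cxcl9 and Cxcl10, chemokines that draw CXCR3+ T cells, differed by 3.29 ± 0.29 and 3.43 ± 0.43 (adjusted p = 0.000235 and 0.00123). Cxcl9 was at 8.51 and 8.44 with LMP1 and at 4.86 and 5.41 in YFP controls, against 4.77 and 4.82 after CD40 activation and 4.6 and 4.89 in naive controls. Ido1, the tryptophan-degrading enzyme, had 7.65 and 7.77 with LMP1 and 4.96 and 4.98 in YFP controls, against 5.15 and 5.41 and 5.03 and 5.88 in CD40-activated cells and naive controls (2.92 ± 0.36). Csf2, which encodes GM-CSF, and Il6 rose with LMP1 alone as well (3.24 ± 0.31 and 2.53 ± 0.51).

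Among 27 cytokines and chemokines 5 differences lay above 0 and 3 below. The 5 were Cxcl9, Cxcl10, Il6, Ebi3 and Ccl5, the last of these with a control gap of -1.69 and no LMP1 response. The 3 below 0 were Tgfb3, Ccl22 and Il18. Tgfb3 had 5.21 and 4.72 with LMP1 and 9.52 and 9.2 in YFP controls, against 5.82 and 5.77 after CD40 activation and 5.62 and 5.8 in naive controls. Its 2 YFP controls were the arrays that stood apart, with a control gap of 3.65. Ccl22, a chemokine for CCR4+ T cells, rose with both, by 2.89 with LMP1 and 4.96 with CD40, and its control gap was 5.18; on the arrays themselves it was higher with LMP1 (13.17 and 13.15) than after CD40 activation (10.34 and 9.77). The count above 0 was 3 without LMP1 1, CD40-activated 2 or naive 1, and the count below 0 was 5 without YFP control 1.

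Receptors and signalling proteins of cytokines gave 7 differences above 0 among 28 genes and none below. Those that rose with LMP1 alone were Tnfrsf8, Il12rb1, Socs1 and Socs2. Tnfrsf8, which encodes CD30, had 9.21 and 9.18 with LMP1 and 5.43 and 5.84 in YFP controls, against 5.52 and 5.59 after CD40 activation and 4.94 and 5.3 in naive controls (3.13 ± 0.28, adjusted p = 0.000232). Il12rb1, a chain of the IL-12 and IL-23 receptors, had 8.25 and 8.16 with LMP1 and 5.86 and 6.21 in YFP controls, against 5.69 and 5.96 and 6.11 and 6.42 in the CD40 pair (2.61 ± 0.28). Both genes stood above all other arrays with LMP1. Il2rb, Il12rb2 and Stat4 fell with CD40 and had no called LMP1 response, and the control gaps of Il2rb, Il12rb2 and Stat4 were -2.46, -1.08 and 1.29. These 3 are also expressed by T and NK cells, whose markers were higher on the naive arrays, and the part of those cells was not tested. Unlike Il2rb and Il12rb2, Stat4 was higher in YFP than in naive controls. Without CD40-activated 1 the count was 4.

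NF-kB, the pathway both receptors share, induces its own inhibitors, such as the genes of IkB alpha and of the ubiquitin editor A20. Among 28 NF-kB targets and feedback genes, 17 rose with LMP1 (14.9% of all genes did) and 9 with CD40 (11%), and the difference lay above 0 for 9 and below 0 for 2. Tnip3, whose protein binds A20, had 8.29 and 8.18 with LMP1 and 4.75 and 5.28 in YFP controls, against 4.75 and 4.41 after CD40 activation and 4.64 and 4.03 in naive controls (2.98 ± 0.36, adjusted p = 0.000981). Tnfaip3, which encodes A20, rose with both, to 10.69 and 10.62 with LMP1 against 7.63 and 7.9 in YFP controls, and to 9.14 and 9.09 after CD40 activation against 8.37 and 8.31 in naive controls (2.12 ± 0.23). Nfkbia, the gene of IkB alpha, and Nfkb2, the gene of p100, differed by 1.75 ± 0.22 and 1.73 ± 0.38. Their YFP controls were below the naive controls by -1.05 and -1.61, and the direct gaps were 0.7 and 0.13. The 2 below 0, Ccl22 and Plek, rose with both and more with CD40, and 14 genes lay above 0 without YFP control 1. None of the 2 was left below 0 without an LMP1 array, a CD40-activated array or naive 1, 1 was left without naive 2 or with quantile normalization within each set, and there were 4 without either YFP control. None of 14 CD40 and TRAF signalling components had a called difference: Cd40 itself rose by 1.28 with LMP1 and 0.99 with CD40 (difference 0.29 ± 0.34).

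Promoter sequence is printed for 4 of the genes above because the κB consensus, the site NF-kB binds, occurred near their start. The consensus was searched by its letters on both strands, from 250 bases before to 50 after the RefSeq start (GRCm38.p6). It was found in 5.56% of the 16626 genes with a promoter entry. The share was 8.9% of the 483 such genes that rose more with LMP1 and 6.56% of the 442 that fell more. It was also found in 11 of 25 genes of the NF-kB list, many of which are known as targets. A match is a description of letters, and binding was not measured. Each window of 100 bases below is given 5′ to 3′ on the strand of the gene, with the match in capitals. The windows lie at chr17:55952534-55952633 (plus strand) for Ebi3, chr6:65590299-65590398 (plus) for Tnip3, chr4:145315278-145315377 (minus) for Tnfrsf8 and chr5:92348994-92349093 (minus) for Cxcl10, where the promoter held 2 matches and 1 lies in the window.
Ebi3: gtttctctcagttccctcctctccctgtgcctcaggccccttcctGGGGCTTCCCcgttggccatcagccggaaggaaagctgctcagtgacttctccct
Tnip3: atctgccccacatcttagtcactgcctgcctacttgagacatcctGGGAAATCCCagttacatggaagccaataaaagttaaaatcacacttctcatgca
Tnfrsf8: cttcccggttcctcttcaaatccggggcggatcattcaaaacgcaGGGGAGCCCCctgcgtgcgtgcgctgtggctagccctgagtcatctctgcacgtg
Cxcl10: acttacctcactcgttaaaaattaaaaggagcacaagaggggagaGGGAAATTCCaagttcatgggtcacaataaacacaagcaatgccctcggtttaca

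Outside the lists, Nudt17, a nudix hydrolase gene, and Nkain1 also rose with LMP1 alone with controls close together. Nudt17 had 8.93 and 8.85 with LMP1 and 5.42 and 5.79 in YFP controls, against 5.82 and 5.62 after CD40 activation and 5.83 and 6.15 in naive controls (3.56 ± 0.27), and Nkain1 differed by 2.72 ± 0.31. The LMP1 arrays of both stood above the other 6.

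Regulators of cell death included 1 of the largest differences. Bcl2l1, which encodes the survival protein Bcl-xL, had 9.76 and 9.76 on LMP1 arrays and 6.07 and 6.06 on YFP controls, against 6.5 and 6.85 on CD40-activated and 7.7 and 6.63 on naive arrays (4.19 ± 0.42, adjusted p = 0.000444, control gap -1.1). It was highest with LMP1 and showed no called CD40 response. Bcl2l11, which encodes the death-promoting protein Bim, ran the other way: 7.33 and 7.25 with LMP1 and 8.76 and 8.2 in YFP controls, against 8.52 and 8.32 after CD40 activation and 7.79 and 7.41 in naive controls (-2.01 ± 0.31). The death receptor gene Fas rose with both and more with LMP1 (1.43 ± 0.35). Over 18 apoptosis regulators 5 lay above 0 and 2 below, and the 5 included death-promoting Pmaip1 (control gap -1.98) and Bik and the receptor Tnfrsf10b besides Bcl2l1 and Fas. The count above 0 was 3 without an LMP1 array, a CD40-activated array or naive 2 and 9 without YFP control 1, and the count below 0 was 1 without an LMP1 array, a CD40-activated array or naive 1.

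Of the genes that rose with both but more with LMP1, Fscn1, Ebi3, Cdkn1a, P2ry13 and Sowahc had the largest differences. Cdkn1a, which encodes the cell cycle inhibitor p21, had 10.79 and 10.79 with LMP1 and 6.85 and 6.68 in YFP controls, against 7.88 and 7.78 after CD40 activation and 6.35 and 6.4 in naive controls (2.57 ± 0.22, adjusted p = 0.00022). Ebi3, a subunit of IL-27 and IL-35 first known as a gene induced by Epstein-Barr virus, had 11.42 and 11.57 with LMP1 and 7.49 and 7.56 in YFP controls, against 8.1 and 7.85 and 6.69 and 6.49 in the CD40 pair (2.59 ± 0.24). Fscn1, which bundles actin and is known from LMP1-positive B cells and mature dendritic cells, differed by 2.61 ± 0.3. In each of these 3 genes the order was LMP1, then CD40-activated, then either control, with no overlap between any 2 groups. P2ry13, a purine receptor, and Sowahc differed by 2.25 ± 0.38 and 2.2 ± 0.24. Among 19 targets of p53 8 lay above 0 and 1, Trp53inp1, below, with medians of 1.24 for the LMP1 response and 0.77 for the CD40 response. Besides Cdkn1a these were Pmaip1, Phlda3, Sesn2, Tnfrsf10b, Fas, Aen and Plk2. The count was 3 to 5 without any 1 of the LMP1 or CD40-activated arrays, and 2 lay below 0 without YFP control 1.

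In the lists of MYC with ribosome biogenesis and of glycolysis, every called difference lay above 0. For MYC and ribosome biogenesis, 19 of 19 members rose with LMP1 and 15 with CD40, and the difference lay above 0 for 5 and below for none (medians 1.785 and 1.025). Myc had 10.67 and 10.79 with LMP1 and 9.13 and 9.02 in YFP controls, against 9.32 and 9.19 after CD40 activation and 9.4 and 8.95 in naive controls (1.58 ± 0.27, adjusted p = 0.00637). The CD40-activated and naive arrays of Myc overlapped. Rrp9, Rrp12, Polr1b and Nop56, which serve the making of ribosomes, were the other 4. Of 15 glycolysis genes 13 rose with LMP1 and 6 with CD40, and 6 differences lay above 0 and none below. Pfkl, the liver-type phosphofructokinase, had 9.79 and 9.67 with LMP1 and 7.79 and 7.31 in YFP controls, against 7.79 and 7.84 after CD40 activation and 7.84 and 7.81 in naive controls (2.19 ± 0.27). Only the LMP1 arrays of Pfkl stood apart. Slc16a1, a lactate transporter, and Hk2, a hexokinase, differed by 2.66 ± 0.46 and 1.79 ± 0.31, and Slc16a3, the glucose transporter Slc2a1 and the kinase Pdk1 also passed, Pdk1 with a control gap of -1.13. The MYC count was 1 to 3 without an LMP1 array, a CD40-activated array or naive 1, and 12 without YFP control 1.

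ATF4 is the factor that cells make more of when amino acids run short or proteins misfold. Of 25 genes of the ATF4 and unfolded protein response 7 differences lay above 0 and 2 below. Asns, asparagine synthetase, had 9.73 and 9.74 with LMP1 and 6.4 and 6.32 in YFP controls, against 6.46 and 5.93 after CD40 activation and 6.17 and 6.32 in naive controls (3.43 ± 0.28, adjusted p = 0.000143). It changed with LMP1 and stayed between 5.93 and 6.46 on the other 6 arrays. Chac1, which degrades glutathione, and Atf3 differed by 2.29 ± 0.29 and 2.96 ± 0.28, and Atf3 fell with CD40 (control gap -1.22). Atf4 itself (1.39 ± 0.3) and the chaperone gene Hspa5 (1.49 ± 0.28) had YFP controls below naive controls by -1.2 and -1.41, so that their direct gaps were 0.19 and 0.08. Sesn2 and Ddit4, inhibitors of mTORC1, were the remaining 2 above 0. Xbp1 and Ero1b lay below 0, and Xbp1 rose with CD40 by 1.5 with an LMP1 response of -0.34 that did not pass (control gap 1.28). The count above 0 was 3 without LMP1 1, LMP1 2 or CD40-activated 1, and 11 without YFP control 1, and the count below 0 was 1 without an LMP1 array, a CD40-activated array or naive 2 and 4 without YFP control 1.

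The core of the ATF4 element, TGATGNAA, was searched in the same promoter windows on both strands. It was found in 3.88% of the 16626 genes, in 5.38% of those that rose more with LMP1 and in 4.07% of those that fell more. Of this list, which joins known ATF4 targets with other genes of the unfolded protein response, 6 of 24 genes held it. Asns, Chac1 and Atf3 are shown because they carry the element and had the 3 largest differences of the list. The windows, with the element or its reverse complement in capitals, lie at chr6:7693179-7693278 (minus strand) for Asns, chr2:119351003-119351102 (plus) for Chac1 and chr1:191183390-191183489 (minus) for Atf3.
Asns: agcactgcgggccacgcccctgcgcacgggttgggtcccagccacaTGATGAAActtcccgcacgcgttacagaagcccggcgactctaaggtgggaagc
Chac1: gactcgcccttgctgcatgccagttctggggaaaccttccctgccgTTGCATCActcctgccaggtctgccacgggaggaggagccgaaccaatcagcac
Atf3: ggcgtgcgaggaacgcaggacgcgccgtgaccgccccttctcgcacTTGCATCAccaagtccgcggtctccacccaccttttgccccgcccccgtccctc

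Most cell cycle genes rose with both stimuli. Of 32 cell cycle genes 31 rose with LMP1 and 29 with CD40 (14.9% and 11% of all genes did), with median responses of 2.06 and 1.755. The difference lay above 0 for 3 and below 0 for 1, against 4.2% and 4.12% of all genes. Cdk6 and Ccnd2, partners that drive entry into the cycle, stood out among them. Cdk6 had 10.52 and 10.52 with LMP1 and 7.45 and 7.45 in YFP controls, against 9.0 and 8.96 after CD40 activation and 8.24 and 7.96 in naive controls (2.19 ± 0.23). Ccnd2, cyclin D2, had 12.32 and 12.25 with LMP1 and 9.54 and 9.28 in YFP controls, against 9.53 and 9.49 and 8.92 and 8.42 in the CD40 pair (2.04 ± 0.28). Both rose with either stimulus and further with LMP1. Aurka was the other above 0, and Cdk4 rose more with CD40 (-1.22 ± 0.22, control gap 1.9). Without naive 2 there were 7 above 0. None was below 0 without any 1 of the LMP1 or CD40-activated arrays, and 2 were without naive 1.

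MHC class II presentation had a median difference of -2.02, against 0.025 over all genes. Class II molecules carry peptides to helper T cells, and Ciita is the coactivator that switches on their genes. Of 15 genes 10 had a difference below 0 (4.12% of all genes did) and none above, and 9 of the 10 fell more with LMP1. The direct gap lay below 0 for 12 of the 15 (5.17% of all genes). Ciita had 7.23 and 7.47 with LMP1 and 10.29 and 9.81 in YFP controls, against 10.74 and 10.8 after CD40 activation and 10.18 and 10.2 in naive controls (-3.28 ± 0.28, adjusted p = 0.000165). It was the lowest of the genes that fell with LMP1 alone with controls close together. H2-Ab1, the beta chain of I-A, had 10.35 and 10.6 with LMP1 and 12.34 and 11.91 in YFP controls, against 12.94 and 12.92 after CD40 activation and 12.43 and 12.44 in naive controls (-2.15 ± 0.27). Its partner H2-Aa (-2.1 ± 0.29) and the I-E chain H2-Eb1 (-2.03 ± 0.24) fell likewise, and their levels stayed in the range of highly expressed genes.

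The class II chain H2-Eb2 had 7.49 and 7.14 with LMP1 and 9.37 and 9.74 in YFP controls, against 10.26 and 10.19 after CD40 activation and 9.38 and 9.56 in naive controls (-3.0 ± 0.28), falling with LMP1 and rising with CD40. H2-Oa and H2-Ob, the chains of H2-O that restrains peptide loading, differed by -2.59 ± 0.23 and -2.36 ± 0.26. H2-Ob also fell with CD40, by -0.87 against -3.23 with LMP1. H2-DMa, a chain of the peptide editor H2-M (-1.02 ± 0.22), and Lgmn, the protease legumain (-2.33 ± 0.26), completed the 9 that fell more with LMP1. Ifi30, a thiol reductase of lysosomes, rose with CD40 (1.19) with an LMP1 response of -0.22 that did not pass. H2-DMb1, H2-DMb2, Rfx5, Rfxap and Ctss (control gap -1.1) did not pass, although H2-DMb1 and H2-DMb2 fell with LMP1 (-1.71 and -1.06). Between 8 and 13 of the 15 lay below 0 when any 1 array was left out. H2-Ea, which C57BL/6 mice lack, could be read only in the F1 pair, with 10.42 and 10.55 on LMP1 arrays and 12.65 and 12.67 on YFP controls, and lay between 5.01 and 5.29 on the CD40-activated and naive arrays (control gap 7.45). Of 15 genes for MHC class I presentation Tap2 and Psmb10 lay above 0 and none below. Neither was left without LMP1 1, LMP1 2 or CD40-activated 1, 1 was without CD40-activated 2 or naive 2 or with array medians subtracted, and 6 genes lay above 0 without YFP control 1.

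**Figure D4:**
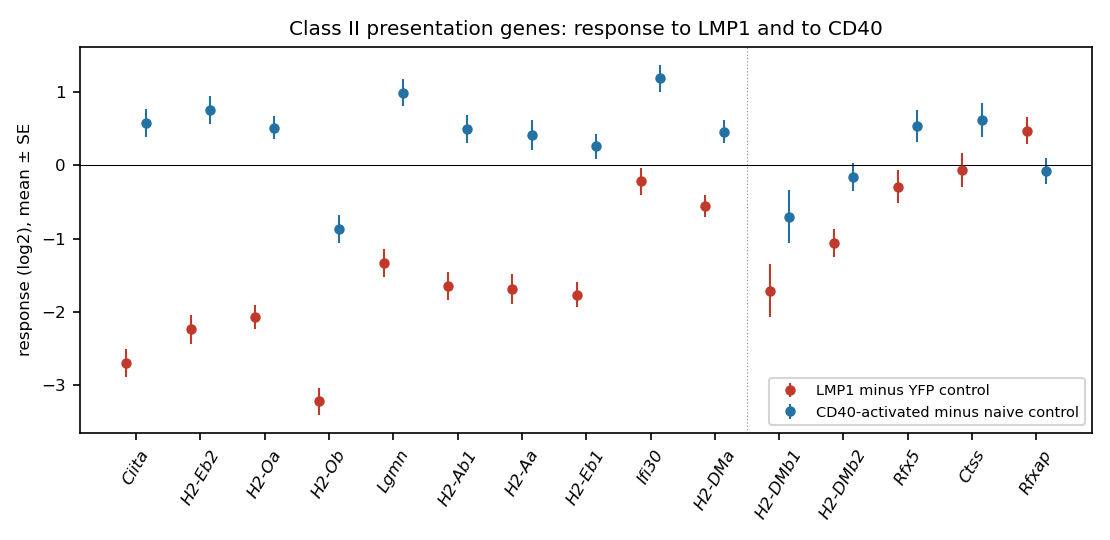
LMP1 response (LMP1 minus YFP control, red) and CD40 response (CD40-activated minus naive control, blue) in log2 units, mean and SE, for 15 class II presentation genes; the 10 left of the dotted line had a called difference. Red points lie below 0 and blue points above for Ciita, H2-Eb2, H2-Oa, Lgmn, H2-Ab1, H2-Aa and H2-Eb1, while H2-Ob lies below 0 for both.

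Class II promoters carry an upstream module whose Y box binds NF-Y. The Y box letters CTGATTGG were found on either strand in 5.26% of the 16626 promoters. The share was 5.2% of the genes that fell more with LMP1 and 6.83% of those that rose more. Of the 12 class II list genes with an entry 4 held the letters, H2-Aa, H2-Eb1, H2-Eb2 and H2-Oa. Their promoters are shown because these 4 genes fell with LMP1. The windows lie at chr17:34287821-34287920 (minus strand), chr17:34305759-34305858 (plus), chr17:34325526-34325625 (plus) and chr17:34092287-34092386 (plus), with the Y box in capitals.
H2-Aa: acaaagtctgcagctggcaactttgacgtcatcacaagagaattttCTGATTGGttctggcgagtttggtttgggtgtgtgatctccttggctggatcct
H2-Eb1: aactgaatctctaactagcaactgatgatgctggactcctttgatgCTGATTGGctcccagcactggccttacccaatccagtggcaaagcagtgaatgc
H2-Eb2: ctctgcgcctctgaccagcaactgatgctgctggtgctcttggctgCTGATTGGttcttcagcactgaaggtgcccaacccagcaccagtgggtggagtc
H2-Oa: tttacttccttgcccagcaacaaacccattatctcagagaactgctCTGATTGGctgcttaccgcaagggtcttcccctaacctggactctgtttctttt

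Called differences in genes that define B cells and adjust their antigen receptor lay mostly below 0. Of 17 B cell identity genes 8 lay below 0 and 1, Fcer2a (control gap -1.03), above, and of 15 genes of receptor signalling and Fc receptors 10 lay below 0 and 1, Syk, above. Fcmr, the receptor for IgM, had 7.93 and 7.95 with LMP1 and 12.25 and 12.21 in YFP controls, against 12.0 and 11.85 after CD40 activation and 11.28 and 11.43 in naive controls (-4.86 ± 0.23, adjusted p = 1.6e-05). The 2 LMP1 arrays stood below 8 and the other 6 above 11. Fcrla, an intracellular Fc receptor-like protein of B cells, had 6.71 and 6.93 with LMP1 and 11.28 and 11.04 in YFP controls, against 9.1 and 9.2 after CD40 activation and 9.4 and 9.66 in naive controls (-3.96 ± 0.25, control gap 1.63). Cd22, an inhibitory lectin of the antigen receptor, had 9.57 and 9.6 with LMP1 and 12.23 and 11.81 in YFP controls, against 11.61 and 11.67 and 11.78 and 11.67 in the CD40 pair (-2.35 ± 0.26). Each was lowest on the LMP1 arrays. Fcgr2b, the inhibitory receptor for IgG (-2.05 ± 0.23), Bank1 (-1.95 ± 0.22), Siglecg (-1.7 ± 0.4) and Pirb (-2.43 ± 0.24) fell with LMP1 as well.

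Cd79a, part of the antigen receptor itself, fell with LMP1 by -1.17 against a CD40 response of 0.11, and Ms4a1, which encodes CD20, rose with CD40 by 0.91 with an LMP1 response of -0.49 that did not pass. Pax5, the factor that maintains B cells, did not pass (0.17). Syk fell with CD40 by -1.45 and not with LMP1. Fcrl5 rose with CD40 by 3.87, had no called LMP1 response, and its YFP controls lay far apart at 8.47 and 10.11 (control gap 2.58). Without any 1 of the LMP1 or CD40-activated arrays 5 identity genes were left below 0 and none above, and the receptor list had 5 below and none above without these arrays or naive 1. Syk also did not pass with array medians subtracted. Both measured immunoglobulin constant regions lay below 0. Ighm had 9.7 and 9.85 with LMP1 and 11.35 and 10.76 in YFP controls, against 11.42 and 11.4 after CD40 activation and 11.15 and 11.13 in naive controls (-1.55 ± 0.29), and Ighg3 fell with LMP1 and rose with CD40 (-3.78 ± 0.49, control gap 2.54). Of 15 measured variable segments 7 fell more with LMP1, with control gaps from 1.145 to 2.31 and direct gaps from -1.6 to -0.19. In 3 others the difference lay above 0, none of them a rise with LMP1. Only 1 of the 2 constant regions was left without LMP1 1 or either CD40-activated array.

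Plasmablast genes gave 1 difference above 0 and 4 below among 15. The 4 were Prdm1, Xbp1, Jchain and Slamf7, the last 3 with control gaps of 1.28, 1.01 and 1.4, of which 1 was left without any 1 of the LMP1 or CD40-activated arrays. The 1 above was Ell2 (control gap -2.3), which was lost when a gene's probe sets were averaged, and 2 lay above 0 without YFP control 1. Of all called plasmablast genes 4 changed more with CD40, and only 1 fell more with LMP1. In germinal centre genes Fas lay above 0 and Bcl6 below among 12. Both were lost without any 1 of the LMP1 or CD40-activated arrays or naive 2, and Fas also without naive 1 or with quantile normalization within each set; without YFP control 1 there were 4 above and 3 below. There were 2 in each direction without YFP control 2, with array weights or with the replicate number as a block, and 2 above with array medians subtracted or dim genes left out.

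Receptors for sphingosine phosphate and chemokines, which place B cells in the spleen, gave 4 differences below 0 and none above among 13. S1pr1, through which lymphocytes leave the tissue, fell with both, to 5.84 and 5.84 with LMP1 against 10.55 and 9.71 in YFP controls, and to 8.86 and 9.05 after CD40 activation against 10.32 and 10.1 in naive controls (-3.04 ± 0.36, adjusted p = 0.000902). Ccr6 fell with LMP1 to 9.21 and 9.22 against 10.24 and 10.05 in YFP controls, and rose with CD40 to 10.69 and 10.71 against 8.32 and 8.02 in naive controls (-3.46 ± 0.24, control gap 1.98). S1pr3, which marks marginal zone B cells, had 6.54 and 6.42 with LMP1 and 9.67 and 9.98 in YFP controls, against 9.73 and 9.9 after CD40 activation and 6.31 and 5.9 in naive controls, the lowest difference of any gene with a called fall (-7.06 ± 0.28, adjusted p = 6.83e-06). Its LMP1 and naive arrays were low, the other 4 were high without overlap, and the control gap was 3.72. Ccr9 rose with CD40 alone. Ccr7 and Cxcr5, which guide B cells to T cells and to follicles, did not pass (0.95 ± 0.28 and 0.57 ± 0.27).

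The same form, a fall with LMP1 and a rise with CD40, was shared by 153 genes, and most of the lowest had YFP controls well above naive controls. Ahr, the aryl hydrocarbon receptor, had 6.04 and 5.73 with LMP1 and 7.89 and 8.46 in YFP controls, against 9.47 and 9.59 after CD40 activation and 5.83 and 5.3 in naive controls (-6.26 ± 0.35, adjusted p = 2.17e-05, control gap 2.61). The LMP1 and naive arrays of Ahr lay between 5.3 and 6.04 and the other 4 between 7.89 and 9.59. Hpgds, a prostaglandin D synthase (-5.82 ± 0.34), and Bhlhe41, a transcription factor of B1 cells (-4.98 ± 0.34), also had LMP1 and naive arrays below the other 4. Their control gaps were 2.58 and 2.19. Mir5104 (-5.87 ± 0.71) and Ms4a7 (-4.98 ± 0.54) did so too, with control gaps of 1.95 and 1.61. The naive arrays of Mir5104 (7.76 and 7.39) lay well above its LMP1 arrays (5.38 and 5.39). Tlr7, the sensor of single-stranded RNA, had a control gap of 3.28 (-4.87 ± 0.49). Myof, which encodes myoferlin, had a smaller one (0.51): it had 5.11 and 5.11 with LMP1 and 7.41 and 7.75 in YFP controls, against 9.34 and 9.46 after CD40 activation and 7.04 and 7.11 in naive controls (-4.8 ± 0.24). Among 16 marginal zone and B1 cell genes 7 lay below 0 and 1, Tbx21, above. The 7 were S1pr3, Dtx1, Plac8, Bhlhe41, Myof, Marcks and Fcrl5, and 2 lay above 0 without YFP control 1 or naive 2.

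Falls with LMP1 alone outside these lists included Crisp3, Rnase6, Mxd4, Pld4, Clec2i and Sbk1. Crisp3 had 3.56 and 4.04 with LMP1 and 9.49 and 10.54 in YFP controls, against 5.3 and 5.75 after CD40 activation and 5.89 and 5.21 in naive controls (-6.19 ± 0.5). Only the YFP controls of Crisp3 were high (control gap 4.47). Rnase6, a ribonuclease of innate immunity, had 6.53 and 6.39 with LMP1 and 9.63 and 9.65 in YFP controls, against 9.45 and 9.42 and 9.33 and 9.49 in the CD40 pair (-3.21 ± 0.23), and its LMP1 arrays alone were low. Mxd4, an antagonist of MYC for the partner MAX (-2.89 ± 0.48), the endolysosomal nuclease Pld4 (-2.79 ± 0.25), the lectin-like Clec2i (-2.72 ± 0.42) and the kinase Sbk1 (-2.37 ± 0.37) had control gaps of at most 0.5 in size.

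In the p200 family, DNA-binding proteins induced by interferon, 6 of 9 genes fell with LMP1 and 4 with CD40. The difference lay below 0 for 4 and above 0 for none, with median responses of -1.85 to LMP1 and -0.9 to CD40. Ifi209 had 6.64 and 6.44 with LMP1 and 10.91 and 10.84 in YFP controls, against 8.35 and 8.59 after CD40 activation and 10.55 and 10.39 in naive controls (-2.34 ± 0.24). Ifi214 had 4.36 and 4.29 with LMP1 and 10.34 and 9.85 in YFP controls, against 5.29 and 5.95 and 8.32 and 8.14 in the CD40 pair (-3.16 ± 0.35, control gap 1.87). Ifi213 (-2.02 ± 0.32, control gap 1.43) and Mndal (-2.14 ± 0.23) were the others. These genes are close copies of each other, so probes can share signal between them. Plac8 (-2.51 ± 0.28, control gap 2.06) and Xkrx (-2.47 ± 0.23, control gap 1.1) likewise fell with both and more with LMP1.

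Other interferon-stimulated genes gave 7 differences above 0 and 2 below among 29, while 13 fell with LMP1 and 19 with CD40. Gbp7 was at 9.69 and 9.51 with LMP1 and 8.27 and 8.44 in YFP controls, against 6.39 and 5.44 after CD40 activation and 7.57 and 6.69 in naive controls (2.46 ± 0.47, control gap 1.23). It rose with LMP1 and fell with CD40. Rsad2 (2.48 ± 0.51) and Isg15 (1.65 ± 0.29) fell with CD40 and had no called LMP1 response, with control gaps of -2.64 and -1.46. Gbp7 did not pass without LMP1 1 or CD40-activated 2. The count above 0 was 1 to 4 without an LMP1 array, a CD40-activated array or naive 1, and 4 with array medians subtracted. The count below 0 was 0 or 1 without an LMP1 array, a CD40-activated array or a naive array, 1 with array weights or the replicate number as a block, and 4 without YFP control 2 or with quantile normalization within each set.

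The highest differences of all lay in genes that were high on the uncultured naive arrays. Hspa1b, an inducible heat shock protein, had 6.6 and 5.9 with LMP1 and 4.62 and 4.46 in YFP controls, against 4.62 and 4.86 after CD40 activation and 12.17 and 10.91 in naive controls (8.51 ± 0.52, adjusted p = 2.76e-05). Its control gap was -7.0, against a direct gap of 1.51. Jun, a subunit of AP-1, had 9.82 and 9.49 with LMP1 and 8.78 and 5.95 in YFP controls, against 5.42 and 6.3 after CD40 activation and 10.49 and 9.53 in naive controls (6.44 ± 1.03, control gap -2.65), and its YFP controls lay far apart. Of 24 immediate-early and stress genes 15 lay above 0 and 1, Egr3 (control gap 1.34), below, but 17 fell with CD40 (6.65% of all genes) and 9 rose with LMP1, and 16 were lower in YFP than in naive controls (7.59% of all genes). Fos (4.82 ± 0.5), Fosb (3.45 ± 0.71) and Hspa1a (7.53 ± 0.76) fell with CD40 and had no called LMP1 response. Their control gaps were -4.27, -3.0 and -6.92, against direct gaps of 0.55, 0.45 and 0.61, and Fosb did not pass without either LMP1 array, either CD40-activated array or YFP control 2. Such genes are known to be induced while tissue is taken apart, and the part of cell isolation was not tested. Egr3 was joined by 1 more gene below 0 without YFP control 1 or naive 2.

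Several rises of the same form had a wide direct gap too. Tspan33, a tetraspanin of activated B cells, had 9.46 and 9.38 with LMP1 and 5.69 and 5.57 in YFP controls, against 6.04 and 6.06 after CD40 activation and 8.7 and 7.37 in naive controls (5.78 ± 0.48, control gap -2.41). It was highest with LMP1 and higher in naive cells than in the other 2 groups. Car2, carbonic anhydrase 2 and abundant in red cells (5.67 ± 0.57), Atp8b4, a phospholipid transporter (4.74 ± 0.41), Lef1, a Wnt pathway factor of T cells and early B cells (4.39 ± 0.23), and Gbp8, a guanylate-binding protein (4.31 ± 0.26), had control gaps of -2.51, -2.66, -2.77 and -2.81. Rabggtb, a subunit of the enzyme that prenylates Rab proteins, had a direct gap of -0.19 and a control gap of -4.6 (4.41 ± 0.6). T cell and erythroid markers were higher on the naive arrays as well, and the part of those cells in these values was not tested.

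Markers of other cells gave no gene that rose more with LMP1 except among those of dendritic cells. All 7 T cell markers, 7 of 9 NK cell markers and 3 of 6 erythroid and platelet markers had a difference above 0, and all 17 did so through a fall with CD40, with no rise with LMP1 called. The T cell count was 4 without CD40-activated 1. Of 7 dendritic cell markers Flt3 and Zbtb46 rose with LMP1. Flt3, a cytokine receptor of dendritic cells and early progenitors, had 9.68 and 9.46 with LMP1 and 6.33 and 6.82 in YFP controls, against 6.89 and 7.08 after CD40 activation and 6.29 and 5.86 in naive controls (2.09 ± 0.31), and Zbtb46 had 7.51 and 7.17 with LMP1 and 5.69 and 5.42 in YFP controls, against 6.14 and 6.13 and 6.12 and 6.23 in the CD40 pair (1.83 ± 0.26). Both stood highest on the LMP1 arrays. Itgax was not raised on these arrays (5.13 and 5.16) against YFP controls (5.23 and 5.22; control gap -1.87), and Xcr1 and Siglech did not pass. Itgax and Bst2 changed with CD40 and not with LMP1. Of 11 monocyte and macrophage markers Adgre1, Cd68 and Ms4a7 lay below 0, the first 2 with control gaps of 1.91 and 1.42, and none of 9 neutrophil markers passed in either direction.

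Among lists of pathways, cholesterol synthesis had 8 genes that changed more with CD40. Of 16 genes 14 rose with CD40 and 12 with LMP1, with median responses of 1.135 to LMP1 and 2.06 to CD40, and 8 differences lay below 0 and none above. Hmgcs1, an early enzyme of the pathway, had 10.05 and 10.01 with LMP1 and 8.94 and 8.75 in YFP controls, against 10.49 and 10.41 after CD40 activation and 7.82 and 7.7 in naive controls (-1.51 ± 0.23, control gap 1.09). LMP1 and CD40-activated cells were close together and the naive controls lowest. The list's median direct gap was 0.095 and its median control gap 1.08. The count was 2 to 4 without an LMP1 array, a CD40-activated array or naive 2. Single genes that rose with CD40 and not with LMP1 included the inhibitory receptor Lilrb4a, with 7.85 and 7.39 with LMP1 and 7.81 and 9.46 in YFP controls, against 12.23 and 12.26 after CD40 activation and 7.84 and 6.75 in naive controls (-5.97 ± 0.68, control gap 1.34). Zc3h12c (-4.53 ± 0.35), Ms4a14 (-4.27 ± 0.47) and Ly96 (-4.08 ± 0.83) did so as well, with control gaps of 1.17, 0.78 and 3.11, and Ly96 did not pass without LMP1 1, LMP1 2, CD40-activated 1 or either naive array.

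**Figure D5:**
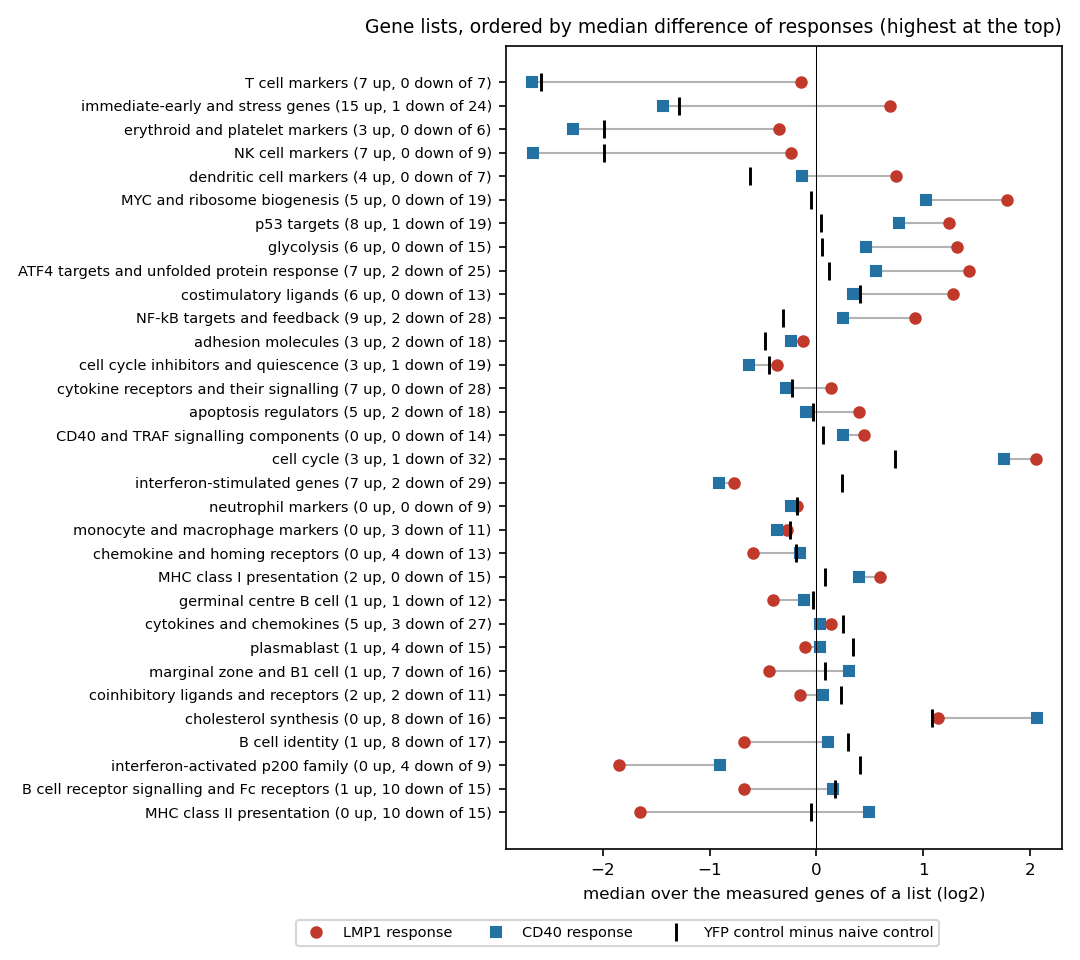
Median LMP1 response (red circle), CD40 response (blue square) and control gap (YFP control minus naive control, black bar) in log2 units over the measured genes of 32 lists, ordered by median difference of responses from the top; numbers give the genes with a called difference above and below 0. Circles lie right of squares by the most for T cell and NK cell markers, whose control gaps are far below 0, and left by the most for MHC class II presentation, whose control gap is near 0.

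The 2 lists not yet described were mixed. Of 18 adhesion molecules Itga4, Icam1 and Itgax lay above 0 and Cd22 and Pecam1 below. The count above 0 was 1 without any 1 of the LMP1 or CD40-activated arrays, 5 without naive 2 or with the replicate number as a block, and 8 without YFP control 1; the count below 0 was 1 without any 1 of the LMP1, CD40-activated or naive arrays or with array medians subtracted. Of 19 cell cycle inhibitors and quiescence genes Cdkn1a, Klf4 and Klf9 lay above 0 and Btg2 below. Klf4 and Klf9 fell with CD40 rather than rising with LMP1. The count above 0 was 1 without an LMP1 array, a CD40-activated array or naive 1 and 6 without YFP control 1, and the count below 0 was 5 without YFP control 2 and 2 with quantile normalization within each set.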

How the data were processed

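The 8 arrays are Affymetrix whole-transcript arrays hybridised with WT PLUS targets, per the labels' protocols. What the authors deposited is RMA-summarised log2 expression, given to 2 decimals. RMA and oligo are the tools listed by the submitters' processing notes, without version. Of 25349 probe sets 22225 had 1 gene symbol in the platform's table. The brightest probe set stood for each of 640 genes with several, which left 21515 genes. A gene table of GRCm38.p6 gave biotypes, and its RefSeq promoters covered 16626 genes.

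The 4 group means were estimated jointly by limma's lmFit and eBayes (limma 3.58.1, R 4.3.3; 4 residual and 5.75 prior degrees of freedom). P-values are two-sided, adjusted by Benjamini-Hochberg over all genes, with a threshold of 0.05. The fit was tested on simulated data. The labels call the replicates biological. With 2 arrays per group, their number limits precision, and array medians lay between 5.59 and 5.75.

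The comparison, its members and 35 gene lists (573 genes, 507 measured) were chosen with earlier results of these data known. Genes were named by rank: the largest differences among all that responded more to LMP1 (10 per direction), among those with LMP1 alone called and a control gap of at most 0.5 (8), among opposite calls (6), among those called in both (5) and among those larger with CD40 (5), and per list up to 4 largest and 2 smallest, with all members of the costimulatory, coinhibitory, class II, sex-linked and strain-dependent lists open to naming. Gene models without a settled name were skipped. Further list members, named to account for a count, were chosen after their values were seen. Lists not described in the report are sex-linked genes, with 0 of 4 called, and strain-dependent genes, with H2-Ea the 1 of 3 called, or 2 without YFP control 1. Alternatives were another scaling, moderation, filter, probe set rule, array weights, the replicate number as a block, and each array left out.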

Additional observations from a re-analysis of the deposited data

Results flagged for a closer look

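Probe sets without 1 gene symbol were outside every comparison of named genes. Of these, 318 had a called difference of responses in the same fit (10.2% of them, against 8.32% of the genes), 121 above 0 and 197 below 0. On 142 of the 318 both LMP1 arrays stood outside the range of all other arrays. They are given as counts since no single gene can be read from them.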

How the results depend on the processing

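Leaving out each array in turn gave 707 to 4199 genes with a called difference of responses, 200 to 1787 rises and 239 to 1291 falls that were larger with LMP1, 2647 to 7090 genes for the LMP1 response, 1576 to 5631 for the CD40 response, 1275 to 4735 for the direct gap and 2695 to 5955 for the control gap. Without LMP1 1 all 200 rises and 265 of 267 falls were among the 603 and 597 reported, and without YFP control 1 587 of 1787 rises and 569 of 1291 falls were. Array weights, which gave LMP1 2.38 and YFP control 0.391 on average, moved the direct gap to 6751 genes and the control gap to 2020. Other settings left the difference between 1550 (array medians subtracted) and 1978 genes (quantile normalization within each set, where direct and control gaps were not run because the sets are then scaled apart). Of 147 named genes past the threshold 110 passed in every alternative that tested them, and none reversed. The filter on dim genes tested 144 of the 147 and left out Csf2 among others. Of 79 named genes not past the threshold 13 passed in some of the 15 alternatives. Lost most often were Aurka, Psmb10, Cd86, Ddit4 and Pdcd1lg2, and the cause was not tested. Same-numbered deviations correlated over genes at 0.065 for LMP1 with YFP control and -0.0694 for CD40-activated with naive control. With 1 such deviation per group, these values cannot decide whether replicate numbers pair the samples. With the replicate block 1739 genes passed, 585 rises and 587 falls among them. The number of arrays limits all of these values. Without the genes below the 25th percentile 1927 passed.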

Other observations

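Small nucleolar RNAs, which guide the modification of ribosomal RNA, were singled out after their values were seen. Of 68 measured, 25 had a difference of responses above 0 and 1 below, and 9 rose more with LMP1. Their median control gap was -2.20 and their median direct gap -1.13, with 54 called lower in YFP than in naive controls and 38 called lower in LMP1 than in CD40-activated cells. Snord43 was at 8.83 and 8.96 with LMP1 and 6.71 and 6.21 in YFP controls, against 7.54 and 7.67 after CD40 activation and 7.73 and 7.5 in naive controls, and was the 1 of the 9 highest on the LMP1 arrays. Snord73a was at 6.89 and 7.15 with LMP1 and 5.86 and 5.14 in YFP controls, against 8.8 and 9.14 and 10.78 and 10.54 in the CD40 pair. The F1 arrays came from an earlier series, so strain, sex, TAT-Cre, sorting and hybridisation cannot be told apart here. Between the 2 control groups culture cannot be told apart from these either.

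MicroRNA genes had 11 differences above 0 (2.47%) and 33 below (7.4%) among 446, against 4.2% and 4.12% of all genes, and 5 rose and 26 fell more with LMP1. The 1871 long non-coding RNA genes gave 28 above (1.5%) and 60 below (3.21%), both shares under those of all genes.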
